A study of Arabidopsis thaliana with 9 samples.

Results

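The dark-inducible (DIN), dormancy-associated (DRM) and related sugar starvation genes of Arabidopsis thaliana were followed in roots in which the bZIP transcription factor PERIANTHIA (PAN) was switched on with β-estradiol. The set holds 10 named loci of the 33201 rows in the expression table: AT3G15450, SEN1 or DIN1 (AT4G35770), ASN1 or DIN6 (AT3G47340), DIN10 (AT5G20250), BGLU30 or DIN2 (AT3G60140), DIN3 (AT3G06850), DIN9 (AT1G67070), DRM1 (AT1G28330), DRM2 (AT2G33830) and KIN10 (AT3G01090). They were chosen by name as genes tied to sugar supply, with their values in these samples at 0, 6 and 24 h already known, so the values below describe the genes and do not test the choice. Of the 10 genes, 9 had a mean level over the 3 times of at least 1 FPKM (fragments scaled by transcript length and by the number of mapped fragments), as did 17841 of all rows. BGLU30 did not reach that minimum, and SEN1 passed it only through its 24 h value.

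The plants were ecotype Col-0 and carried the XVE:PAN transgene, in which an estradiol-dependent activator drives PAN. All groups shared the genotype, medium with 1% sucrose and a total growth of 5 days. They differed in the hours spent on plates with 10 uM β-estradiol, which were 0, 6 or 24, with 3 biological replicates at each time. Mock-treated plants and plants without the transgene were not analysed here, so hours on estradiol, hours since the transfer to new plates and hours of PAN induction cannot be told apart. The labels do not give the light conditions or the time of day, and no measurement of sugars was analysed here. The tissue is described both as whole root and as root cut about 0.5 cm from the tip.

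The submitters combined the 3 replicates into 1 value per gene and time, so no spread between replicates can be printed. The authors' deposited table carries a q-value for each pair of times, the one place where replicate error shows, and its smallest q, 0.000358, is a floor at which genes have no order. A gene was called higher or lower when that q-value was below 0.05 and its mean level was at least 1 FPKM. Differences are given in log2(FPKM + 1) unless they are named as fold or as the authors' log2 fold change. The added 1 understates the change of low genes. PAN itself stood at 1.03, 688 and 385 FPKM at 0, 6 and 24 h. Markers of root tissue such as SCR, WER and CASP1 were present at every time. In bulk tissue, more cells expressing a gene and more RNA per cell cannot be told apart.

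Plant cells sense a shortage of sugar partly through SnRK1, a protein kinase related to yeast SNF1 and animal AMPK, whose main catalytic subunit in Arabidopsis is KIN10. When sugar is short or leaves are darkened, SnRK1 signalling favours the breakdown of amino acids and other reserves, in part through bZIP factors of the C and S1 groups. The DIN genes were first described as transcripts that accumulate in darkened leaves and are repressed by sugar. In leaves they are used as markers of carbon starvation, and ASN1 and SEN1 are widely used readouts of SnRK1 activity.

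The sequences just upstream of the genes were read from the RefSeq TAIR10.1 genome, 250 bp before each annotated gene start. They are shown for 4 of the genes with the largest rises and for ASN1, since several of them hold the same short motif. The letters run 5′ to 3′ along the strand of each gene, and capitals mark the I-box GATAAG or its reverse complement and, in ASN1, the G-box CACGTG.
AT3G15450 (chr3:5212734-5212983, plus strand): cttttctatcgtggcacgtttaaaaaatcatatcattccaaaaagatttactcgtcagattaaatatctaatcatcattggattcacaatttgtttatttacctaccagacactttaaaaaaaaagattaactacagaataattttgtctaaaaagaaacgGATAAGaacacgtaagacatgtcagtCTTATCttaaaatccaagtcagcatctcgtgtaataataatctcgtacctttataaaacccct
SEN1 (chr4:16944628-16944877, plus strand): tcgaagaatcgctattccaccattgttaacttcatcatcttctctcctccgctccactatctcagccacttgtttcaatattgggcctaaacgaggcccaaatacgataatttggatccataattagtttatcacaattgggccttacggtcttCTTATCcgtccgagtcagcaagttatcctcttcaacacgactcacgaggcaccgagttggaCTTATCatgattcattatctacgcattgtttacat
DRM1 (chr1:9935441-9935690, minus strand): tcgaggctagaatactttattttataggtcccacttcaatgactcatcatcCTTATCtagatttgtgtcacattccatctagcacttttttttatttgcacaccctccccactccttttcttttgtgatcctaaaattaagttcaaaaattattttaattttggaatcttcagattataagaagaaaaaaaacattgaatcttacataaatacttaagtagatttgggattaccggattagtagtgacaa
DRM2 (chr2:14310609-14310858, minus strand): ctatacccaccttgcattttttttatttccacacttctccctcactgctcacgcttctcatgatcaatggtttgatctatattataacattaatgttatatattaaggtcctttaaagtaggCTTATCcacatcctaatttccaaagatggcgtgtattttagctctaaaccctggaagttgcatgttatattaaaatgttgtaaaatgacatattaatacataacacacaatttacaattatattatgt
ASN1 (chr3:17441432-17441681, minus strand): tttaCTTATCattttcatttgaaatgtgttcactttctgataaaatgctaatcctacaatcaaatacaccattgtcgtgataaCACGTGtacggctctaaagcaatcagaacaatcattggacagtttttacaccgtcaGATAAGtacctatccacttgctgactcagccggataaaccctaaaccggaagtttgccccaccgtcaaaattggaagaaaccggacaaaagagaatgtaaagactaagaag

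In all, 5 motifs were searched on both strands, each known as a site linked to light, sugar or bZIP factors. GATAAG, the I-box of light-responsive promoters, was found upstream of 6 of the 9 genes searched and in 12.3% of 27443 upstream windows of the same length from nuclear protein-coding genes. AT3G15450 held it at positions -89 to -84 and -63 to -58 from the gene start. In SEN1 it stood at -96 to -91 and -35 to -30, in DRM1 at -199 to -194 and in DRM2 at -128 to -123. DIN9 and ASN1 each held more than 1 match. DIN10, BGLU30 and KIN10 had no match in this window. TATCCA, a sugar starvation element of rice α-amylase promoters, was found in ASN1 and DRM2, against 13.6% of all windows, and in DRM2 it overlaps the I-box match. The TGA element TGACG, of the kind bound by the TGA family to which PAN belongs, was found in 3 of the 9 genes, AT3G15450, ASN1 and BGLU30, against 18.6% of all windows. ACGT, the core of many bZIP sites, was found in 4 genes, against 44.1%. The G-box CACGTG, which contains that core, was found in 1 gene, ASN1, against 6.49%. These matches describe the letters only, in genes whose values were known beforehand.

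**Figure D1:**
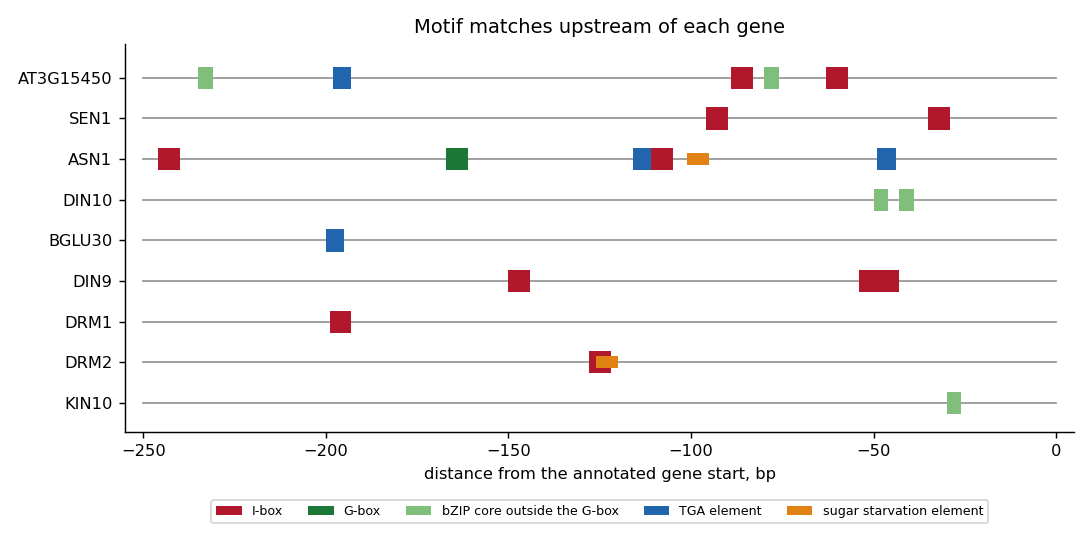
Matches of the searched motifs (coloured blocks) in the 250 bp before each annotated gene start, 1 line per gene, with distance from the start in bp on the x axis. I-box matches, in red, lie upstream of 6 of the 9 genes drawn and are not seen for DIN10, BGLU30 and KIN10.

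AT3G15450 had the highest level of the set at 6 and 24 h. Its protein is annotated as aluminum induced with YGL and LRDR motifs, a small family whose members resemble the glutamine amidotransferase part of asparagine synthetase. The gene had 54.6 FPKM at 0 h, 273 FPKM at 6 h and 1448 FPKM at 24 h. It was thus 5.00-fold higher at 6 h and 26.5-fold higher at 24 h than at 0 h, and the step from 6 to 24 h was again 5.31-fold. The authors' deposited table lists each of its comparisons at the floor of q = 0.000358. At 0 h it was the row with the 3123rd highest level in the table, at 6 h the 634th and at 24 h the 69th. In log2(FPKM + 1), only 4 of the 17841 rows with a mean of at least 1 had a larger rise from 0 to 24 h. That rank depends on the added 1, which holds down low genes. By fold, EARLI1, at 0.389 FPKM at 0 h and 34.9 FPKM at 24 h, rose more but counts there as smaller.

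The dormancy-associated genes DRM1 and DRM2 encode short related proteins named for transcripts of dormant buds, and both are used as markers of growth arrest and sugar shortage. DRM1 stood at 23.8, 72.0 and 246 FPKM at 0, 6 and 24 h. DRM2 stood at 22.1, 29.0 and 210.5 FPKM. The genes began and ended at similar levels but differed at 6 h, where DRM1 was 3.02-fold and DRM2 1.31-fold above 0 h. The authors' deposited table has q = 0.000358 for DRM1 and q = 0.211 for DRM2 at that time. By 24 h DRM1 was 10.3-fold and DRM2 9.52-fold above 0 h, and the authors' deposited table lists both at q = 0.000358. Whether their 6 h changes differ from each other was not tested, since no values per replicate were at hand.

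SEN1 encodes a protein with a rhodanese domain whose transcript accumulates in darkened and senescing leaves. It had 0.443 FPKM at 0 h, 0.527 FPKM at 6 h and 10.1 FPKM at 24 h. The level was near the lower end of what the table resolves at the first times and 19.2-fold higher at 24 h than at 6 h. The authors' deposited table has q = 1 for the first 6 h, a value that can also stand for no test. For SEN1 at 24 h it lists q = 0.000358 against either earlier time. Its difference was 0.08 at 6 h and 2.95 at 24 h. At levels this low both values depend on the pseudocount: with 0.1 in place of 1 they were 0.21 and 4.24.

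ASN1, which encodes an asparagine synthetase that moves nitrogen into a carbon-sparing transport form, was the one gene of the set called lower at 6 h and higher at 24 h. It stood at 5.23 FPKM at 0 h, 2.50 FPKM at 6 h and 12.8 FPKM at 24 h. The fall at 6 h was 0.83 in log2(FPKM + 1), to 0.477 of the starting level (q = 0.000666, authors' deposited table). The 24 h level was 2.45-fold that at 0 h and 5.12-fold that at 6 h, each at the floor (q = 0.000358, authors' deposited table). Such a pair of opposite calls was met by 16 of the 17841 rows, or 0.0897%.

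The remaining enzymes of the set belong to the metabolism of branched-chain amino acids and sugars. DIN3 encodes the acyltransferase (E2) subunit of the mitochondrial complex that breaks down branched-chain keto acids. Its level went from 4.43 FPKM at 0 h through 7.998 FPKM at 6 h to 26.2 FPKM at 24 h, a 5.91-fold rise. Against 0 h, the authors' deposited table lists DIN3 with q = 0.00315 at 6 h and q = 0.000358 at 24 h. DIN10, annotated as a member of the raffinose synthase family, went from 62.2 through 132 to 238 FPKM, and was 2.13-fold higher at 6 h and 3.83-fold higher at 24 h. It had the highest level of the set at 0 h, and each of its comparisons stood at the floor (q = 0.000358, authors' deposited table).

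DIN9, a mannose-6-phosphate isomerase also called PMI2, changed least among the genes called. It had 6.61, 8.92 and 10.1 FPKM at 0, 6 and 24 h and was 1.53-fold higher at 24 h than at 0 h. The authors' deposited table has q = 0.154 for its first 6 h, q = 0.593 for the step from 6 to 24 h and q = 0.0293 for the whole day. BGLU30, a β-glucosidase of family 1 glycosyl hydrolases whose transcript accumulates in darkened leaves, was low in these roots. It stood at 0.980, 0.446 and 0.8001 FPKM. The authors' deposited table lists BGLU30 at q = 1 throughout, a value that can also stand for no test. A change of BGLU30 was thus not detectable at these levels.

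KIN10, the kinase subunit, had 38.5, 39.1 and 33.5 FPKM at 0, 6 and 24 h. From 0 h it differed by 0.021 at 6 h (q = 0.950, authors' deposited table) and by -0.19 at 24 h (q = 0.444, authors' deposited table). No interval of these differences can be given, and the transcript level says nothing of the activity of the kinase.

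**Figure D2:**
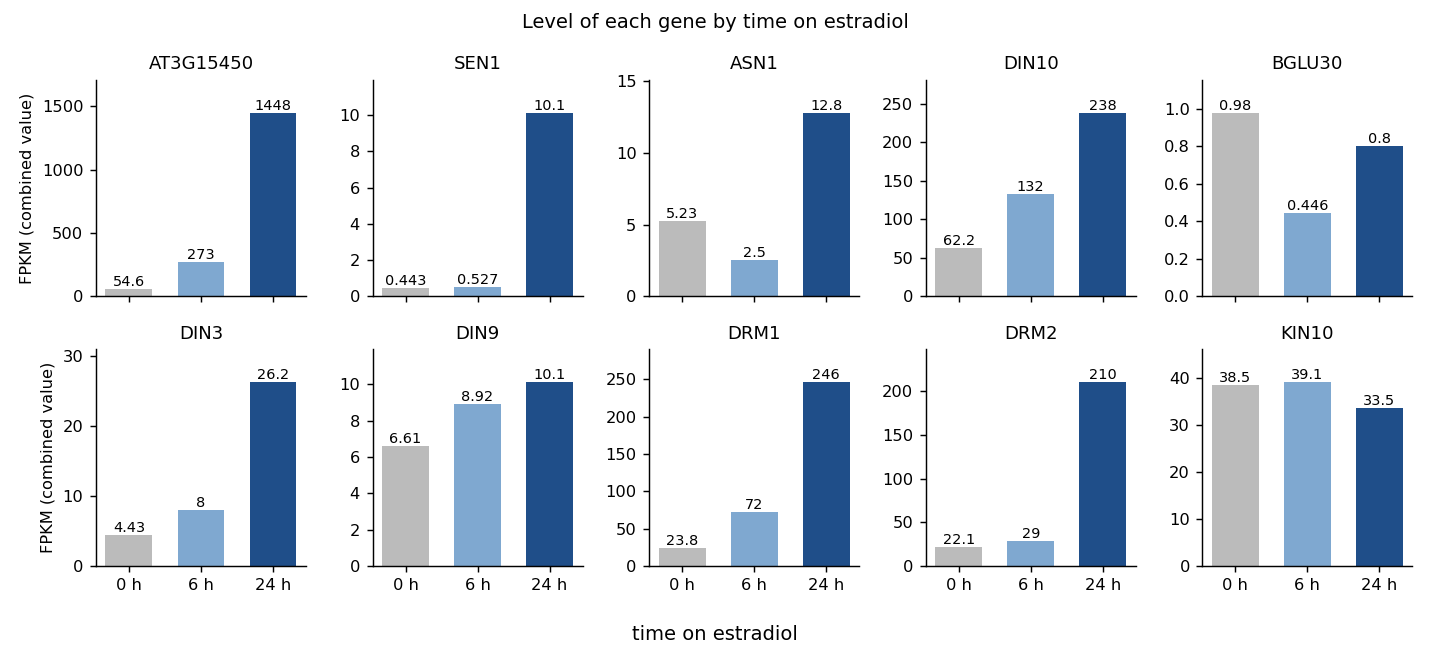
Level of each of the 10 genes at 0, 6 and 24 h on estradiol, in FPKM, 1 panel per gene with its own axis starting at 0; each bar is the value the authors combined from 3 replicates, with no error available. AT3G15450 goes from 54.6 to 1448, ASN1 dips to 2.50 at 6 h before reaching 12.8, and KIN10 stays between 33.5 and 39.1.

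The genes fell into different time courses. By the call rule, 4 of the 9 genes with a mean of at least 1 FPKM were higher in all 3 comparisons. These were AT3G15450, DIN10, DIN3 and DRM1, and 0.594% of the 17841 rows met that pattern. In the first 6 h, 4 of the 9 were called higher, where 3.98% of all rows were. In that time 1 was called lower, where 7.35% were (11.3% in either direction). After the whole day, 8 genes were called, each higher than at 0 h, where 47.7% of all rows were called, 23.8% higher and 23.8% lower. From 6 to 24 h, 7 were called, each higher, where 39.4% of all rows were called, 19.6% higher and 19.8% lower. These shares stand beside the counts as background, and nothing is read from the contrast, since the genes were chosen with these values known. The median difference of the 9 genes with a mean of at least 1 was 0.38 at 6 h and 2.32 at 24 h, beside 0.019 and 0.046 over all rows.

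By 6 h, DIN9 had covered 70.0% of its 24 h difference on the log2 scale, though its 6 h value was not called and its 24 h difference was the smallest among the 8 called genes. DIN10 had covered 56.0%, AT3G15450 48.9%, DRM1 47.0%, DIN3 31.3% and DRM2 11.8%. ASN1 was lower at 6 h than at 0 h, so its share was -72.7%. In 6 of the 8 genes called higher at 24 h, the step from 6 to 24 h was the larger on that scale. The exceptions were DIN10 and DIN9, where the step from 0 to 6 h was larger. For AT3G15450 and DIN10 this depended on the processing. With the trend by transcript length described below removed, the first and second steps were 2.31 and 1.97 for AT3G15450. For DIN10 they were then 1.05 and 1.16. Quantile normalization also gave AT3G15450 a larger first step, 2.44 against 2.05. The order of the levels changed with time. At 0 h DIN10 led, followed by AT3G15450 and then KIN10, and none of the genes reached 100 FPKM. At 24 h AT3G15450 led, followed by DRM1, DIN10 and DRM2, all 4 above 100 FPKM, with KIN10 next. Neighbours such as DRM1 and DIN10 at 24 h lie within 246 and 238 FPKM, and without replicates their order cannot be set against an error.

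**Figure D3:**
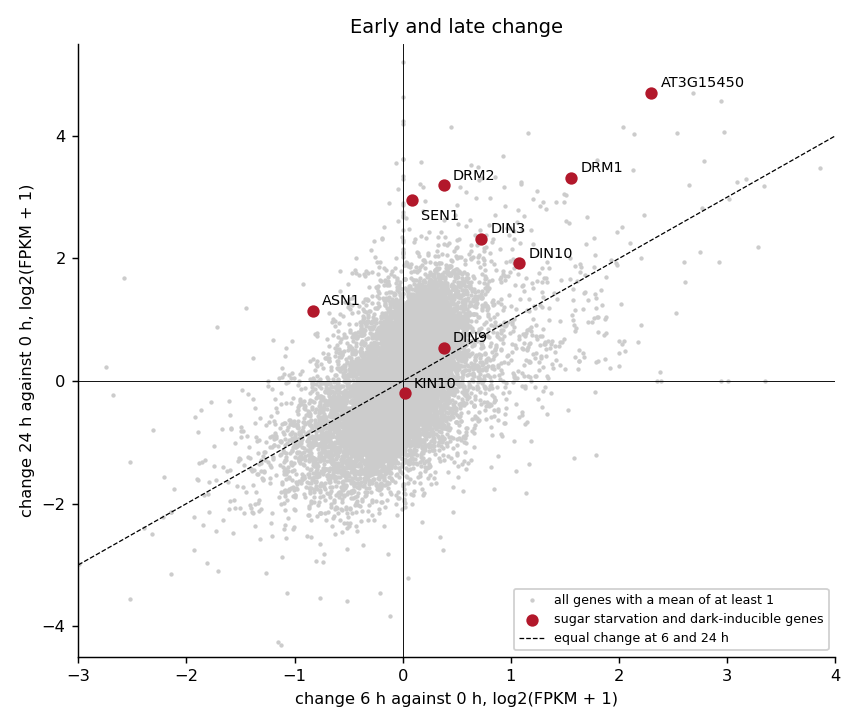
Difference from 0 h in log2(FPKM + 1) at 6 h (x axis) and at 24 h (y axis) for all genes with a mean of at least 1 FPKM (grey; the few outside the axes are not drawn) and for 9 genes of the set (red); the dashed line marks equal differences. SEN1 lies at 0.08 and DRM2 at 0.38 at 6 h, and both lie near 3 at 24 h. AT3G15450 and DRM1 are high at both times, and ASN1 is the one red point left of the vertical axis.

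The late differences varied with transcript length across genes. Across 17501 rows with a transcript length, differences at 24 h against 0 h fell with length (Spearman's rho -0.39 across genes, which share libraries and are no replicates), whereas rho at 6 h was -0.016. At 24 h against 6 h, rho was -0.47. For 24 h against 0 h, the running median over 50 length bins stood at 0.37 at the length of AT3G15450 (1051 bp), at 0.51 for DRM2 (933 bp), at -0.20 for ASN1 (2439 bp) and at -0.36 for DIN10 (3011 bp). With that trend removed, the 24 h differences were 4.33 for AT3G15450, 3.08 for DRM1, 2.69 for DRM2 and 2.60 for SEN1. They were 2.34 for DIN3, 2.28 for DIN10, 1.35 for ASN1 and 0.59 for DIN9. For 24 h against 6 h, removing the trend moved AT3G15450 from 2.40 to 1.97 and DRM2 from 2.82 to 2.31. It moved DIN10 from 0.84 to 1.16.

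**Figure D4:**
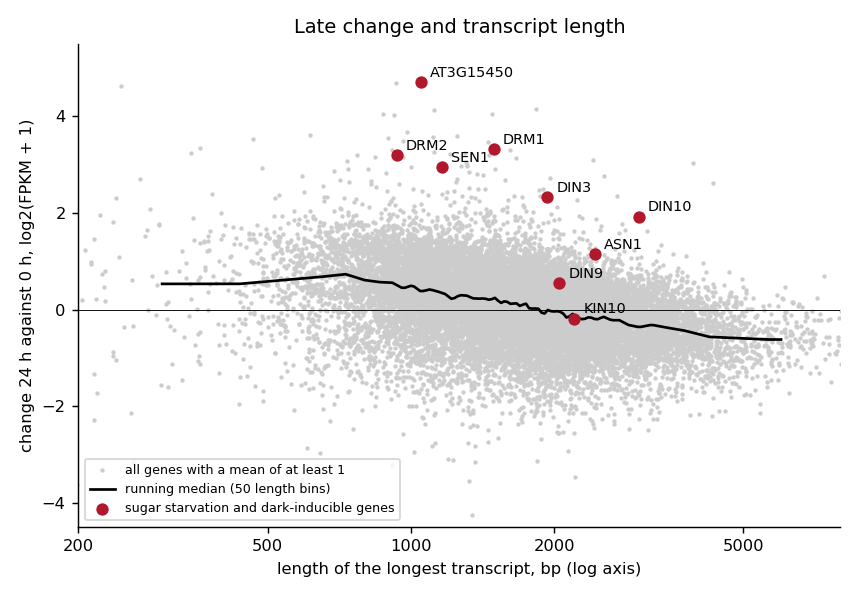
Difference at 24 h against 0 h in log2(FPKM + 1) by length of the longest annotated transcript (log axis, bp) for all genes with a mean of at least 1 FPKM (grey) and 9 genes of the set (red), with the running median in black; points outside the axes are not drawn. The black line falls from above 0 for short to below 0 for long transcripts, and 8 of the red points lie above it.

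Tissue markers also differed between the times. The summed level of 9 root markers was 1247, 962 and 799 FPKM at 0, 6 and 24 h. The sum was carried by 3 genes with high levels, CASP1, PHT1;1 and COBL9, while the median difference over the 9 at 24 h was 0.23, with 5 higher and 4 lower in value. By the call rule, 3 were called higher at 24 h (SHR, PLT1 and PLT2) and 4 lower. Over all rows, 23.8% were called higher and 23.8% lower. PLT1 and PLT2 were low, with mean levels of 1.52 and 1.63 FPKM over the 3 times. The markers called lower were SMB, CASP1, PHT1;1 and the root hair gene COBL9, the last at 132, 90.0 and 42.1 FPKM. Transcripts of green tissue were present but low: 5 such markers summed to 15.8, 11.4 and 56.8 FPKM, and 3 of the 5 stayed below 1 FPKM at every time. Of the other 2, the light-harvesting gene LHCB1.3 stood at 12.4, 9.51 and 42.9 FPKM, and the Rubisco gene RBCS1A at 2.99, 1.66 and 12.8 FPKM. Both were called higher at 24 h (q = 0.000358, authors' deposited table). The part of transcript length, of these tissues and of the green tissue markers in the results was not tested.

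Sequence shared with other genes was small. No stretch of 100 bp, the read length, in the longest transcript of any of the 10 genes occurs in the longest transcript of another gene. AT3G15450 overlaps AT3G15460 on the other strand by 41 bp and DIN10 overlaps AT5G20260 by 82 bp. ASN1, DIN3 and KIN10 have overlaps of 9 to 13 bp with a neighbour.

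Close relatives of the set were then examined, 16 genes in all, of which 12 had a mean of at least 1 FPKM. After 24 h, 5 were called higher and 1 lower. Together these are 6 of the 12, where 47.7% of all rows were called. Their median difference was 0.26, beside 0.046 over all rows. At 6 h, 1 was called, AILP1, where 11.3% of all rows were. Among the relatives of AT3G15450, AILP1 (AT5G19140) stood at 1.98, 7.69 and 11.04 FPKM, and the authors' deposited table has q = 0.0135 for it at 6 h and q = 0.00174 at 24 h. AT4G27450 stood at 1.26, 1.45 and 10.3 FPKM, an 8.14-fold rise at 24 h. AT5G43830 stood at 292, 302 and 472 FPKM and was called higher at 24 h, while AT3G22850 had 333, 308 and 292 FPKM and was not called.

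Among the relatives of DRM1 and DRM2, AT1G56220, annotated as dormancy/auxin associated, stood at 98.2, 90.7 and 243 FPKM and was 2.47-fold higher at 24 h (q = 0.000358, authors' deposited table). AT1G54070 had 0.163 FPKM at 0 h and was listed at 0 afterwards, and AT5G44300 was listed at 0 throughout. The other asparagine synthetase genes differed less than ASN1. ASN2 stood at 20.8, 25.3 and 28.4 FPKM and was not called at 24 h (q = 0.0514, authors' deposited table). ASN3 stood at 24.6, 25.4 and 23.5 FPKM and was not called.

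The raffinose synthase relatives of DIN10 went different ways. AT5G40390 fell from 45.8 through 38.1 to 21.2 FPKM at 24 h (q = 0.000358, authors' deposited table). SIP2 (AT3G57520) rose from 45.3 through 49.8 to 68.2 FPKM at 24 h (q = 0.00795, authors' deposited table). AT1G55740 had 3.08, 2.43 and 3.14 FPKM and was not called. The mannose-6-phosphate isomerase gene AT3G02570 stood at 70.9, 46.6 and 41.7 FPKM and was not called at 24 h (q = 0.306, authors' deposited table). KIN11, the other main catalytic subunit of SnRK1, had 30.5, 37.4 and 32.2 FPKM and was not called. The β-glucosidase genes BGLU28 and BGLU29 stayed below 1 FPKM at every time.

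The dark-inducible genes outside the set were DIN4 and DIN11. DIN4 encodes an E1 subunit of the same keto acid complex as DIN3. Its levels were 8.76, 9.86 and 15.99 FPKM, and it was called higher at 24 h (q = 0.0488, authors' deposited table). DIN11, a dioxygenase family gene, stood at 0.0316, 0.0291 and 0.556 FPKM, below the minimum for a call.

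Other genes of the starvation pathway were taken as lists, each described by its counts beside the background of 23.8% called higher and 23.8% lower at 24 h, and of 3.98% higher and 7.35% lower at 6 h. The breakdown of branched-chain and other amino acids was covered by 14 genes, of which 12 had a mean of at least 1 FPKM. At 24 h, 9 of these were called higher and 1 lower, and the median difference was 0.62. MCCA, a subunit of the leucine-degrading methylcrotonyl-CoA carboxylase, stood at 5.85, 7.76 and 19.5 FPKM, a 3.34-fold rise. The proline dehydrogenase PRODH1 stood at 116, 183 and 287 FPKM, and IVD, the isovaleryl-CoA dehydrogenase, at 11.6, 14.998 and 21.4 FPKM. Each of the 3 was at the floor at 24 h (q = 0.000358, authors' deposited table). The gene called lower was D2HGDH, a hydroxyglutarate dehydrogenase, with 15.7, 15.8 and 10.8 FPKM. At 6 h, 2 of the 12 were called, PRODH1 and PRODH2, both higher, where 3.98% of all rows were called higher.

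Regulators of the pathway gave other counts. Of 7 genes for regulatory subunits and activating kinases of SnRK1, 1 was called higher and 3 lower at 24 h, and the median difference was -0.067. KINB3, a β-type subunit, rose from 14.96 and 15.3 to 23.5 FPKM. SNF4, the βγ subunit, fell from 53.3 and 49.3 to 29.7 FPKM. Both upstream kinases were called lower. SNAK2 had 53.4, 47.3 and 34.2 FPKM, and SNAK1, whose row also holds AT3G45242, had 37.1, 25.7 and 15.9 FPKM and was also the 1 gene called, lower, at 6 h.

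Of 9 C and S1 bZIP genes, 5 had values that could be used, and bZIP1, bZIP2, bZIP11 and bZIP53 were not analysed here. bZIP63, a C group factor that SnRK1 phosphorylates, stood at 12.6, 21.8 and 53.8 FPKM. It was 1.73-fold higher at 6 h and 4.26-fold higher at 24 h, and the authors' deposited table lists these at q = 0.00148 and q = 0.000358. bZIP25 was called lower at 24 h, with 69.6, 65.9 and 47.2 FPKM. The other 3 were not called at either time, and the list's median at 24 h was -0.17.

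Class II trehalose phosphate synthases, proteins whose transcripts respond to sugar status, numbered 7. At 24 h, 4 were called higher and 1 lower, and the median difference was 0.58. Of those called higher, 1 sits in a row joined with another locus, and that row gave the median. TPS8 stood at 11.9, 22.04 and 31.3 FPKM and was the 1 gene called at 6 h. TPS11 stood at 5.03, 6.38 and 13.1 FPKM and TPS6 at 2.24, 2.87 and 5.47 FPKM. TPS7, the gene called lower, had 66.5, 60.9 and 37.9 FPKM.

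For autophagy, 9 ATG8 genes were counted, of which 2 were called higher and 1 lower at 24 h, with a median difference of 0.17. ATG8g stood at 6.22, 8.06 and 15.2 FPKM, and ATG8b at 6.68, 12.2 and 11.7 FPKM, the latter called higher at 6 h as well. ATG8h, in a row joined with AT3G06430, was called lower, from 372 through 303 to 200.03 FPKM.

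A list of 8 sugar transporters and hydrolases described as repressed by sugar went mostly the other way. Of the 6 with a mean of at least 1 FPKM, 1 was called higher and 4 lower at 24 h, and the median difference was -0.62. BGAL4, a β-galactosidase, fell from 169.5 through 127 to 78.5 FPKM, and BGAL1 from 53.1 through 47.3 to 30.7 FPKM. The hexose transporter STP1 fell from 156 through 121 to 98.1 FPKM. STP4, another hexose transporter, was called higher at both times, with 57.2, 126 and 88.7 FPKM. Of 11 genes described as induced by sugar, 6 had a mean of at least 1 FPKM, of which APL3 was called higher at 24 h, with 2.27, 2.65 and 3.69 FPKM, and HXK1, the glucose sensor hexokinase, lower, with 111, 104 and 79.7 FPKM. The authors' deposited table has q = 0.0425 for APL3 and q = 0.0366 for HXK1 at 24 h, and the lowest q of that list at 6 h was 0.608.

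**Figure D5:**
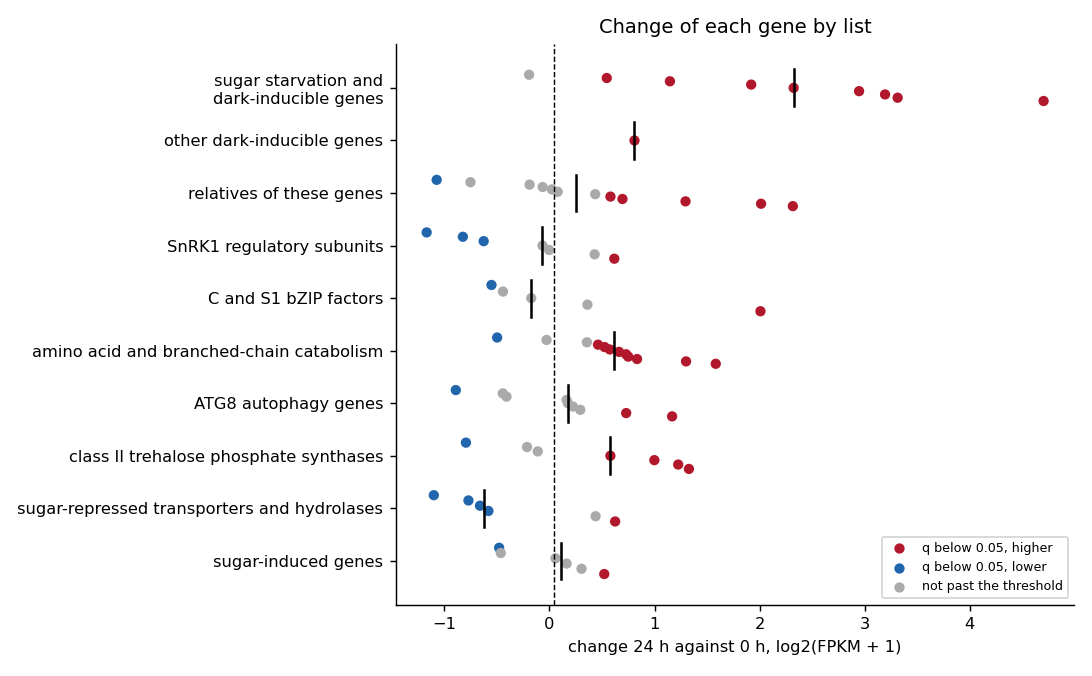
Difference at 24 h against 0 h in log2(FPKM + 1) for each gene with a mean of at least 1 FPKM, by list; red and blue points were called higher and lower (q below 0.05, authors' deposited table), grey points were not, short black lines are list medians and the dashed line is the median over all rows. The set of sugar starvation and dark-inducible genes has a median of 2.32, amino acid breakdown one of 0.62, and the sugar-repressed transporters and hydrolases one of -0.62.

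The rows most like AT3G15450 were sought by the distance between their pairs of differences at 6 and 24 h, over 3 combined values each. The nearest 5 were EARLI1 (AT4G12480), AT2G25900, AT4G31441, AT1G19960 and GAT1_2.1 (AT1G15040), at distances of 0.38 to 0.70 log2 units. EARLI1, a lipid transfer-like protein, stood at 0.389, 7.91 and 34.9 FPKM. GAT1_2.1, annotated as a class I glutamine amidotransferase-like protein, stood at 12.1, 74.9 and 214 FPKM. AT4G31441, at 0, 6.68 and 22.8 FPKM, and AT1G19960 were not called at either time. The q listed for AT4G31441 can also stand for a comparison that was not tested. The rows nearest to the pair of medians of the set were AT2G25460, CYP86A1 (AT5G58860), AT2G22760, AT1G07135 and AT1G18250, at distances of 0.033 to 0.11. With 3 points per row, many rows can lie this close.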

How the data were processed

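Polyadenylated RNA from the 9 root samples was read as single-end reads of 100 bp, per the labels. The submitters' processing notes name TopHat2 2.0.13, Cufflinks 2.1.1, Cuffdiff and build TAIR10, without roles. The authors deposited 1 value per row and time, taken as FPKM from those tools and from the values, a log2 fold change and a q-value per comparison, per the file headers. Read depth per sample and its effect on precision are unknown. The values summed to 933264, 860568 and 989899 FPKM.

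The members, lists and motifs were chosen with earlier results of these data known. Genes named were all members, their relatives, DIN4 and DIN11, up to 3 called rises and 3 falls per list, and the 5 rows nearest to AT3G15450 and to the member medians. Differences used log2(FPKM + 1) and a minimum mean of 1. Calls used the authors' deposited q-value below 0.05. A joined row stands for each of its loci. Transcript lengths and upstream windows came from RefSeq TAIR10.1. The upstream window of DIN3 is not reported here. Fits across replicates, planned for values per replicate, could not be made. Calculations used Python 3.11.15, numpy 2.4.6 and pandas 2.3.3, and the steps across all rows were tested on simulated data.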

Additional observations from a re-analysis of the deposited data

How the results depend on the processing

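No paired analysis was possible because each time has a single combined value per gene, and for the same reason no replicate could be left out. Without depth or replicates, small differences of low genes such as BGLU30 cannot be resolved. Under pseudocount 0.1, the authors' log2 fold change, both scalings and removal of the length trend, no called member changed direction. The median difference of the members at 24 h ranged from 2.26 with median-of-ratios scaling to 2.56 with the authors' log2 fold change.

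The counts of calls among the members moved by over 1.5 times under 1 setting. A minimum change of 1 in log2(FPKM + 1) left 3 of the 5 called at 6 h, ASN1 and DIN3 being lost. Over all rows it left 460 of the 2021 called at 6 h. Without the added 1, the authors' log2 fold change at 6 h was -1.07 for ASN1 and 0.85 for DIN3. DIN9 lost its 24 h call under a q-value limit of 0.01 and under that minimum change. SEN1 lost its calls with a minimum mean of 5, and DIN10 its call at 24 h against 6 h with the minimum change. Adjustment within each comparison, from p-values recovered on the reading that the q-values were adjusted over all 3 comparisons together, changed no member's call.

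Among the lists at 24 h against 0 h, a minimum change of 1 left 0 calls for DIN4 and DIN11, 1 for the SnRK1 subunits, 1 for the bZIP factors, 2 for amino acid breakdown, 1 for ATG8, 2 for the trehalose phosphate synthases, 1 for the sugar-repressed and 0 for the sugar-induced genes. At 6 h it left 0 for the SnRK1 subunits, bZIP factors, amino acid breakdown, ATG8 and trehalose phosphate synthases. A q-value limit of 0.01 left 0 for DIN4 and DIN11, 1 for the bZIP factors, 6 for amino acid breakdown and 0 for the sugar-induced genes at 24 h. At 6 h it left 0 for the relatives of the members, 0 for the SnRK1 subunits, 1 for amino acid breakdown and 0 for ATG8. Adjustment within 6 h against 0 h left 0 for the SnRK1 subunits, 1 for amino acid breakdown and 0 for ATG8. A minimum mean of 5 left 1 for the sugar-induced genes at 24 h. The stricter limits remove calls by construction, and did so over all rows. Of the 8504 rows called at 24 h against 0 h, a minimum change of 1 left 3178. A q-value limit of 0.01 left 6375 and a minimum mean of 5 left 6902. Of the 2021 rows called at 6 h, a minimum change of 1 left 460. At that time a q-value limit of 0.01 left 1224, and adjustment within the comparison left 1358.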
